A study of Mus musculus with 48 samples.

Results

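The set described here holds 35 mouse genes of autophagy and of the lysosome, chosen by name for their known functions and with earlier results of these data known. The platform's annotation gave 34 of them a probe set under their single symbol, out of 18193 genes measured in all, and Bnip3l, a mitophagy receptor, was not analysed here. RNA was read on Affymetrix MOE430v2 arrays, on which each transcript is measured by a set of short oligonucleotide probes. The cells were C2C12, one established line of mouse myoblasts, the dividing precursors of muscle, which fuse into multinucleate myotubes when serum is lowered. The arrays fell into 16 groups of 3. All cells were grown in DMEM with 20% fetal bovine serum before induction and in DMEM with 2% horse serum after it. Cells in growth medium were taken 24 h before induction and at 0 h, and differentiating cells at 12 times from 0.5 h to 144 h. In 2 further groups the cells received 50 µM cycloheximide, an inhibitor of protein synthesis, 1 h ahead of the change of medium, and were taken at 1 h and 3 h of differentiation. Neither a drug-treated group at 0 h nor a vehicle for the untreated cells is named in the labels. The 3 cultures of a group came from successive passages of the line, so the p-values measure only the spread between these cultures. No group stayed in growth medium past 0 h, and the effects of the new medium and of time in culture cannot be told apart.

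Autophagy delivers cytoplasm to the lysosome for breakdown. The ULK kinases and the complex that holds Beclin 1 start a double membrane, ubiquitin-like conjugation fixes the Atg8 proteins (the LC3 and GABARAP families) to it, and receptors such as p62 bind cargo to those proteins. The closed vesicle then fuses with a lysosome, whose cathepsins and glycosidases work at the acid pH that the V-ATPase pump keeps, and the transcription factor TFEB raises many genes of this system. In skeletal muscle the pathway clears damaged mitochondria and stored glycogen, and loss of its parts causes myopathies, such as Pompe disease with GAA and Danon disease with LAMP2.

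Arrays of a group correlated at 0.9818 to 0.9955, and the number of arrays per group limits the precision. Array medians ran from 4.003 to 4.157 on the log2 scale without cycloheximide and from 4.2 to 4.241 with it. Myog, the muscle regulatory factor myogenin, had a mean level of 5.64 ± 0.74 (SD, n = 3) 24 h before induction, 10.15 ± 1.12 at 0 h and 12.46 ± 0.34 at 144 h, and Ckm, muscle creatine kinase, stood at 4.60 ± 0.34, 5.50 ± 0.61 and 11.16 ± 0.54. All 3 arrays at 0 h lay above the 3 taken 24 h before for Myog. Mki67, a marker of dividing cells, went from 10.43 ± 0.19 through 9.34 ± 0.24 to 6.17 ± 0.50. Of 8 muscle markers 6 rose and 1 fell at 144 h against 0 h (limma), of 4 proliferation markers 0 rose and 4 fell, and of 3 adipocyte markers 1 rose and 1 fell. Macrophages and osteoclasts are rich in lysosomes, so their markers were read too. Ptprc, Itgam, Adgre1 and Cd68, which define leukocytes and macrophages, had means of 3.18, 3.10, 3.91 and 3.61 at 0 h and of 3.25, 3.22, 3.84 and 3.64 at 144 h, all below the array medians. The mean over all 10 macrophage and leukocyte genes listed was 4.14 at 0 h and 4.06 at 144 h, within the range of those medians. The listed genes not named here thus lay higher on average. Of the 10 macrophage and leukocyte genes, 0 rose and 1 fell at 144 h against 0 h (limma), and their summed intensity ran from 223 to 249 at 0 h and from 176 to 215 at 144 h. Of the 5 osteoclast genes 0 passed that test (limma), and 0 had an unadjusted p under 0.05, with sums of 60.1 to 61.2 at 0 h and 61.2 to 73.2 at 144 h.

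Genes of the set changed before induction and from 48 h of differentiation on, with few calls between. Up to 12 h few of all genes were called either. During the 24 h in growth medium before induction (0 h against 24 h before), 15 of the 34 genes rose and 0 fell (limma, adjusted p under 0.05, the threshold used throughout), led by Map1lc3a, Ctsa, Hexa and Nbr1. Of all genes, 13.1% were called in that comparison, with 7.26% upward and 5.86% downward. The median difference was 0.38 over the set and 0.01 over all genes, and the 3 arrays at 0 h all lay above the earlier 3 for 21 of the 34 genes and all below for 1, against 28.7% of all genes without overlap in either direction. In bulk RNA, fewer cells of a type and less RNA per cell cannot be told apart, here or in the comparisons that follow. Between 0.5 h and 12 h of differentiation only Map1lc3a and Ctsh were called at any of the 8 times, 2 of 34 genes against 3.96% of all genes. At 24 h the calls were 3 upward and 1 downward, against 14% of all genes called, 6.56% upward and 7.42% downward, and 1 gene was called there without replicate 2 or 3 of 0 h.

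At 48 h the set divided: 7 genes rose and 10 fell against 0 h (limma), where 26.7% of all genes were called, 12.4% upward and 14.3% downward. The medians were -0.11 for the set and 0.06 for all genes. Lamp2 and Ulk2 fell most, and Atg16l1 and Map1lc3a rose most. By 96 h 11 had risen and 3 fallen, with 32.6% of all genes called, 15.5% upward and 17.1% downward. By 144 h 13 had risen and 1 had fallen, with 28.4% of all genes called, 13.5% upward and 14.9% downward, and medians of 0.22 and 0.04. Atg4a, Map1lc3a, Neu1 and Ctsd had the largest rises at 144 h and Lamp2 was the gene that fell. From 24 h to 144 h 12 rose and 0 fell, against 14.5% of all genes called, 7.5% upward and 6.98% downward. From 48 h to 144 h, a comparison added after the time courses had been seen, 15 rose and 0 fell, against 10.3% of all genes, 5.18% upward and 5.13% downward, with medians of 0.35 and -0.01. An F-test over the 12 differentiation times against 0 h called 23 of the 34 genes and 38.2% of all genes. Scaling each array to 12 housekeeping genes moved the median of all genes by 0.17 for 0 h against 24 h before, by -0.20 at 48 h, by -0.15 at 96 h and by -0.11 at 144 h. Of these 12 genes, 6 were themselves called in the F-test over differentiation times. With that scaling 21 genes of the set rose and 0 fell before induction, where 18.8% of all genes were called, 15.5% upward. At 48 h 2 rose and 16 fell, where 28.5% of all genes were called, 6.01% upward and 22.4% downward. At 96 h 8 rose and 5 fell, where 30% were called, 8.43% upward and 21.6% downward. At 144 h 9 rose and 3 fell, where 27.5% were called, 9.46% upward and 18.1% downward. The map of group means by gene shows these phases.

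**Figure D1:**
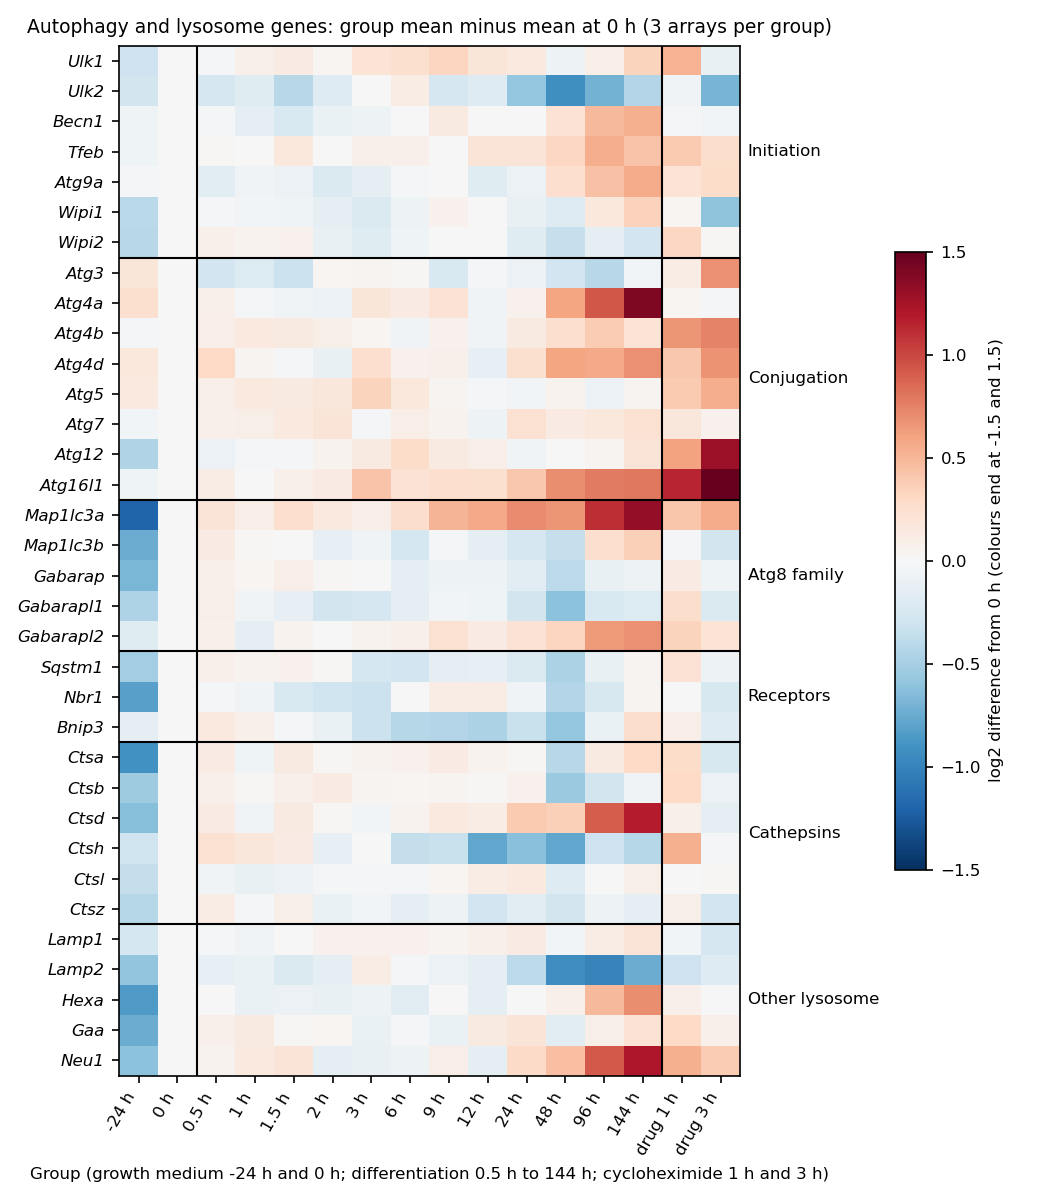
Colour gives the mean log2 level of each of the 34 genes in each group minus its mean at 0 h (3 arrays per group), with genes ordered by role and groups by time, and drug marking cycloheximide. The column for 24 h before induction is blue for most genes of the Atg8 family, receptors, cathepsins and other lysosomal proteins, and Atg4a, Map1lc3a, Ctsd and Neu1 are darkest red at 144 h.

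Among the 7 genes of initiation and its regulation, 1 rose before induction, and 4 rose and 0 fell by 144 h. For the counts of each role, the shares of all genes called were 13.1% before induction, 26.7% at 48 h and 28.4% at 144 h. Arrays that did not overlap those of 0 h were found for 20.2% of all genes at 12 h and 35.3% at 24 h. This share was 38.4% at 48 h, 41.9% at 96 h and 36.3% at 144 h. Ulk1, the kinase that starts the autophagosome, lay at 7.17, 7.35 and 7.03 at 24 h before induction and then 7.74, 7.40 and 7.33 at 0 h. Over the 24 arrays from 0.5 h to 12 h, called the early arrays from here on, it ran from 7.30 through a median of 7.60 to 7.96. It stood at 7.79, 7.69 and 7.45 at 24 h, then 7.43, 7.41 and 7.41 at 48 h, then 7.81, 7.41 and 7.53 at 96 h and then 7.88, 7.78 and 7.80 at 144 h. The 3 arrays at 144 h lay above those of 0 h, but Ulk1 passed no test without drug, with a difference of 0.33 (SE 0.14, limma adjusted p 0.076) at 144 h. Ulk2, its paralog, was at 7.96, 8.27 and 8.18 at 24 h before induction and then 8.29, 8.38 and 8.55 at 0 h. Over the early arrays it ran from 7.78 through a median of 8.26 to 8.60. It was at 7.91, 7.64 and 7.93 at 24 h, then 7.56, 6.96 and 7.92 at 48 h, then 8.0, 6.98 and 8.11 at 96 h and then 8.51, 7.64 and 7.75 at 144 h. Its arrays at 24 h, 48 h and 96 h all lay below those of 0 h, and replicate 2 was the lowest at 48 h and 96 h. Ulk2 fell by 0.92 (SE 0.22, limma adjusted p 0.0015) at 48 h and by 0.71 (adjusted p 0.0117) at 96 h, and its difference at 144 h was -0.44 (SE 0.22, limma adjusted p 0.147). The call at 96 h was lost without replicate 3 of 0 h or replicate 2 of 96 h (adjusted p 0.0561 to 0.258). On other probe sets of Ulk2, with lower signal, the difference at 144 h was -0.52, 0.10 and -0.06.

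Becn1, Beclin 1 of the lipid kinase complex, stood at 8.92, 8.70 and 8.82 at 24 h before induction and then 8.75, 8.94 and 8.92 at 0 h. From 0.5 h to 12 h it ran from 8.53 through a median of 8.83 to 9.07. It was at 8.63, 8.94 and 9.02 at 24 h, then 9.07, 9.03 and 9.17 at 48 h, then 9.55, 9.25 and 9.27 at 96 h and then 9.21, 9.59 and 9.41 at 144 h. All 9 arrays from 48 h on lay above the 3 at 0 h, and Becn1 rose by 0.48 (SE 0.13, limma adjusted p 0.00412) at 96 h and by 0.53 (SE 0.13, limma adjusted p 0.00188) at 144 h. Tfeb, the transcription factor of lysosomal genes, was at 5.80, 5.93 and 6.04 at 24 h before induction and then 5.92, 6.09 and 5.95 at 0 h. Its 24 early arrays ran from 5.77 through a median of 6.06 to 6.30. Its difference before induction did not pass the test (0.06, SE 0.12, limma adjusted p 0.88). Tfeb then stood at 6.20, 6.00 and 6.34 at 24 h, then 6.18, 6.53 and 6.18 at 48 h, then 6.57, 6.71 and 6.29 at 96 h and then 6.49, 6.40 and 6.34 at 144 h, with every array from 48 h on above those of 0 h. It rose by 0.31 at 48 h, 0.54 at 96 h and 0.42 (SE 0.12, limma adjusted p 0.00564) at 144 h, and the call at 48 h was lost without replicate 1 or 3 of 0 h or replicate 2 of 48 h (adjusted p 0.132 to 0.346).

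Wipi1, which binds phosphatidylinositol 3-phosphate on the forming membrane, was the gene of this role that rose before induction, from 8.08, 8.13 and 8.0 to 8.52, 8.49 and 8.41, a difference of 0.40 (SE 0.10, limma adjusted p 0.00303). The call before induction was lost without probe sets ending in _s_at or _x_at (0.37, limma adjusted p 0.37). Wipi1 was at 8.37, 8.14 and 8.32 at 48 h and then 9.14, 8.64 and 8.70 at 144 h, and rose by 0.35 (SE 0.10, limma adjusted p 0.00499) at 144 h against 0 h, a call lost without replicate 1 of 144 h (adjusted p 0.122). On other probe sets of Wipi1, with lower signal, the difference at 144 h was 0.63, 0.25, -0.02, -0.14 and -0.12. Atg9a, the membrane protein of the seed vesicles, rose by 0.56 (SE 0.20, limma adjusted p 0.0288) at 144 h although its arrays overlapped those of 0 h, and that call was lost without replicate 2 or 3 of 0 h or replicate 1 or 2 of 144 h (adjusted p 0.0549 to 0.221). Wipi2, which recruits ATG16L1, was called in none of the 18 comparisons between groups, and its probe sets disagreed at 144 h, with -0.28 on the one used and 0.74 on the next brightest.

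The 8 genes of the conjugation machinery gave 1 rise before induction and 3 rises with 0 falls at 144 h. Atg4a, a protease that trims Atg8 proteins for conjugation, lay at 6.90, 6.83 and 7.10 at 24 h before induction and then 6.72, 6.58 and 6.81 at 0 h. Across the early arrays it ran from 6.38 through a median of 6.78 to 7.0. It then reached 6.64, 6.59 and 7.07 at 24 h, then 7.49, 6.89 and 7.48 at 48 h, then 7.66, 7.47 and 7.78 at 96 h and then 8.15, 8.16 and 8.01 at 144 h. The 144 h arrays were above every other array of the series for this gene, and Atg4a rose 2.65-fold at 144 h, 1.41 (SE 0.15, limma adjusted p 1.14e-09) on the log2 scale. The other probe set of Atg4a, with a mean of 3.97 that lay below the array medians, gave -0.01 at 144 h. Of the paralogs of Atg4a, Atg4d rose by 0.60 at 48 h, 0.57 at 96 h and 0.68 (SE 0.19, limma adjusted p 0.00439) at 144 h. All 3 calls of Atg4d were lost without some single array: at 48 h without replicate 3 of 0 h or replicate 1 of 48 h (adjusted p 0.118 to 0.134), at 96 h without replicate 3 of 0 h or replicate 1 or 2 of 96 h (adjusted p 0.1 to 0.129), and at 144 h without replicate 2 of 144 h (adjusted p 0.0902). Atg4b was at 8.21, 8.30 and 8.13 at 24 h before induction and then 8.36, 8.21 and 8.17 at 0 h. Its early arrays ran from 8.05 through a median of 8.25 to 8.61. It stood at 8.29, 8.52 and 8.33 at 24 h, then 8.49, 8.70 and 8.32 at 48 h, then 8.76, 8.59 and 8.53 at 96 h and then 8.23, 8.68 and 8.46 at 144 h, all 96 h arrays lying above those of 0 h. Atg4b rose by 0.38 (SE 0.13, limma adjusted p 0.0242) at 96 h, a call lost without replicate 2 or 3 of 0 h or replicate 1 of 96 h (adjusted p 0.0652 to 0.103), and its difference at 144 h was 0.21 (SE 0.13, limma adjusted p 0.271).

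Atg16l1, the partner of the ATG12 and ATG5 conjugate, was at 7.02, 6.87 and 6.68 at 24 h before induction and then 7.12, 6.89 and 6.75 at 0 h. Over the early arrays it ran from 6.75 through a median of 7.09 to 7.45. It was at 7.24, 7.34 and 7.42 at 24 h, then 7.70, 7.74 and 7.42 at 48 h, then 7.87, 7.70 and 7.52 at 96 h and then 7.63, 7.86 and 7.66 at 144 h. Every array from 24 h on lay above all 3 of 0 h, with rises of 0.41 at 24 h, 0.70 at 48 h, 0.78 at 96 h and 0.80 (SE 0.12, limma adjusted p 1.69e-06) at 144 h, of which the one at 24 h was lost without replicate 2 or 3 of 0 h or replicate 2 or 3 of 24 h (adjusted p 0.0527 to 0.133). Atg12, the ubiquitin-like protein of the system, was the conjugation gene that rose before induction, from 7.35, 7.35 and 7.10 to 7.74, 7.67 and 7.75. That difference was 0.45 (SE 0.12, limma adjusted p 0.00598), and it was lost without replicate 3 of the group 24 h before (adjusted p 0.057). The early arrays of Atg12 ran from 7.56 through a median of 7.78 to 8.08. It stood at 7.67, 7.60 and 7.73 at 24 h, then 7.74, 7.62 and 7.83 at 48 h, then 8.01, 7.48 and 7.77 at 96 h and then 8.22, 7.79 and 7.73 at 144 h, and its difference at 144 h did not pass the test (0.19, SE 0.12, limma adjusted p 0.245).

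Atg3, the E2-like enzyme of Atg8 lipidation, lay at 9.36, 9.19 and 9.05 at 24 h before induction and then 8.95, 8.90 and 9.21 at 0 h. From 0.5 h to 12 h it ran from 8.47 through a median of 8.96 to 9.21. It was at 9.19, 8.77 and 8.83 at 24 h, then 8.97, 8.21 and 9.01 at 48 h, then 8.84, 8.13 and 8.83 at 96 h and then 9.72, 8.63 and 8.59 at 144 h. These late arrays spread widely, with replicate 2 lowest at 48 h and 96 h and replicate 1 highest at 144 h, and Atg3 passed no test without drug. Atg5 and Atg7, the ATG12 acceptor and the E1-like enzyme, were called in none of the 18 comparisons, with 144 h differences of 0.05 (SE 0.12, limma adjusted p 0.845) and 0.23 (SE 0.12, limma adjusted p 0.163).

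In the Atg8 family, 4 of 5 genes rose before induction, while 2 rose and 2 fell at 48 h. Map1lc3a, the LC3A gene, lay at 9.06, 9.32 and 9.23 at 24 h before induction and then 10.65, 10.35 and 10.21 at 0 h. The rise was 2.3-fold, 1.20 (SE 0.12, limma adjusted p 2.1e-09) on the log2 scale. Its 24 early arrays ran from 10.24 through a median of 10.64 to 11.04. Within that span Map1lc3a rose by 0.51 (SE 0.12, limma adjusted p 0.0135) at 9 h, where 1.36% of all genes were called, and by 0.57 (SE 0.12, limma adjusted p 0.00308) at 12 h, where 2.82% were. The call at 9 h was lost without replicate 2 or 3 of 0 h or replicate 1 or 2 of 9 h (adjusted p 0.074 to 0.138). It reached 11.10, 11.17 and 11.05 at 24 h, then 11.02, 11.22 and 10.97 at 48 h, then 11.62, 11.57 and 11.34 at 96 h and then 11.70, 11.71 and 11.75 at 144 h. Each of these groups lay wholly above 0 h, and the 144 h rise was 2.49-fold, 1.31 (SE 0.12, limma adjusted p 1.14e-11). The probe set used for Map1lc3a has a name ending in _x_at, which marks possible cross-hybridisation, and its other probe set gave 1.20 before induction and 2.05 at 144 h. With the 2 averaged, the values at 9 h and 12 h were 0.65 and 0.69 and were not called (limma adjusted p 0.133 and 0.0726). Map1lc3a was called in 11 of the 18 comparisons. Without replicate 2 of every group 0 genes of the set were called between 0.5 h and 12 h (limma), with 7 at an unadjusted p under 0.05 at some early time, and without replicate 3 0 were called, with 8 at that p.

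Map1lc3b, the LC3B gene, was at 10.41, 10.65 and 10.48 at 24 h before induction and then 11.25, 11.28 and 11.26 at 0 h, a rise of 0.75 (SE 0.16, limma adjusted p 0.000633). Across the early arrays it ran from 10.79 through a median of 11.24 to 11.52. It was at 10.83, 11.01 and 11.19 at 24 h, then 10.77, 11.06 and 10.91 at 48 h, then 11.67, 11.43 and 11.46 at 96 h and then 11.38, 11.67 and 11.82 at 144 h. The arrays at 24 h and 48 h lay below 0 h and those at 96 h and 144 h above it. The differences from 0 h did not pass the test, with -0.35 (SE 0.16, limma adjusted p 0.0932) at 48 h and 0.36 (SE 0.16, limma adjusted p 0.085) at 144 h, and the rise from 48 h to 144 h did, by 0.71 (SE 0.16, limma adjusted p 0.00132). Gabarapl1 lay at 9.67, 10.21 and 10.04 at 24 h before induction and then 10.53, 10.41 and 10.36 at 0 h. Its early arrays ran from 10.05 through a median of 10.30 to 10.76. It was then at 10.04, 10.25 and 10.18 at 24 h, then 9.61, 10.06 and 9.79 at 48 h, then 10.21, 10.05 and 10.37 at 96 h and then 10.02, 10.35 and 10.33 at 144 h. All arrays at 24 h, 48 h and 144 h lay below those of 0 h, and Gabarapl1 fell by 0.61 (SE 0.16, limma adjusted p 0.0025) at 48 h. Its rise before induction, 0.46 (SE 0.16, limma adjusted p 0.0436), was lost without replicate 1 or 3 of the group 24 h before or replicate 1, 2 or 3 of 0 h (adjusted p 0.0587 to 0.36).

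Gabarap rose by 0.68 (SE 0.09, limma adjusted p 9.9e-07) before induction and fell by 0.39 (adjusted p 0.00107) at 48 h. Gabarapl2 (GATE-16) had 0.18 (SE 0.11, limma adjusted p 0.392) before induction and rose by 0.32 at 48 h, 0.64 at 96 h and 0.68 (SE 0.11, limma adjusted p 8.15e-06) at 144 h. Its call at 48 h was lost without replicate 2 of 0 h or replicate 2 of 48 h (adjusted p 0.133 to 0.159).

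The 3 cargo receptors measured all fell at 48 h. Sqstm1, which encodes p62, was at 10.80, 11.17 and 10.97 at 24 h before induction and then 11.60, 11.58 and 11.34 at 0 h, a rise of 0.53 (SE 0.12, limma adjusted p 0.00228). It ran from 11.13 through a median of 11.48 to 11.75 over the early arrays, and was at 11.16, 11.44 and 11.25 at 24 h, then 10.94, 11.23 and 10.92 at 48 h, then 11.54, 11.39 and 11.27 at 96 h and then 11.37, 11.72 and 11.56 at 144 h. The 48 h arrays lay below all 3 of 0 h, and Sqstm1 fell by 0.47 (SE 0.12, limma adjusted p 0.00334). At 144 h the ranges overlapped, with a difference of 0.05 (SE 0.12, limma adjusted p 0.848). Nbr1, another ubiquitin-binding receptor, was at 8.95, 9.24 and 9.27 at 24 h before induction and then 9.85, 9.97 and 10.09 at 0 h, a rise of 0.81 (SE 0.09, limma adjusted p 6.67e-08). Over the early arrays it ran from 9.58 through a median of 9.89 to 10.20. It was at 9.83, 9.89 and 10.03 at 24 h, then 9.40, 9.48 and 9.70 at 48 h, then 9.74, 9.53 and 9.90 at 96 h and then 10.04, 10.04 and 9.95 at 144 h, with all 48 h arrays below 0 h. Nbr1 fell by 0.44 (adjusted p 0.000416) at 48 h and by 0.24 (adjusted p 0.0463) at 96 h, and the call at 96 h was lost without replicate 2 or 3 of 0 h or replicate 1 or 2 of 96 h (adjusted p 0.0704 to 0.341).

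Bnip3, a mitochondrial receptor also known as a hypoxia target, lay at 9.21, 9.66 and 9.30 at 24 h before induction and then 9.50, 9.65 and 9.45 at 0 h, and was not called before induction (0.15, SE 0.15, limma adjusted p 0.679). From 0.5 h to 12 h it ran from 8.98 through a median of 9.35 to 9.80. It was at 9.29, 9.17 and 9.14 at 24 h, then 8.97, 8.90 and 8.99 at 48 h, then 9.19, 9.25 and 9.86 at 96 h and then 9.47, 9.77 and 10.15 at 144 h. The arrays at 24 h and 48 h lay below those of 0 h, replicate 3 was the highest at 96 h and 144 h, and Bnip3 fell by 0.58 (SE 0.15, limma adjusted p 0.0027) at 48 h. From 48 h to 144 h all 3 receptors rose, Bnip3 by 0.84 (SE 0.15, limma adjusted p 6.66e-05), Sqstm1 by 0.52 (SE 0.12, limma adjusted p 0.00319) and Nbr1 by 0.48 (SE 0.09, limma adjusted p 0.000315). These differences and the falls at 48 h share the 48 h arrays.

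Lysosomal genes often carry the letters CACGTG, the core of the element that TFEB and related factors bind, just before their start. Among the 28 genes of the set with an entry in the RefSeq promoter table (GRCm38.p6), 9 had CACGTG in the 250 bases before a start, on both strands since the letters are a palindrome: Atg3, Atg5, Atg7, Bnip3, Ctsa, Ctsd, Ctsl, Gaa and Lamp1. Of all 32851 windows of that length, 6.02% held it, and of the 33 windows of these genes 9 did. The longer TCACGTG, which contains it, was in windows of 6 genes and in 3.13% of all windows. CAGCTG, the core of many E-boxes bound by the myogenic factors, was in windows of 3 genes and in 13% of all windows. GTAAACA, a forkhead factor site, was in 0 of the 28 and in 3.17% of all windows. Such matches are letters in a window, not measured binding. Of the 9 genes with CACGTG, Ctsa, Ctsd, Gaa and Lamp1 rose before induction, and Atg3, Atg5, Atg7, Bnip3 and Ctsl were not called there. A link between the letters and these changes was not tested. The 4 windows shown are those of Lamp1, with 4 copies, of Ctsd and Gaa, which rose with Lamp1 before induction, and of Atg3, which did not. They are written from 5′ to 3′ and end at the base before the RefSeq start, with CACGTG in capitals.
Lamp1, chr8:13158911-13159160, plus strand: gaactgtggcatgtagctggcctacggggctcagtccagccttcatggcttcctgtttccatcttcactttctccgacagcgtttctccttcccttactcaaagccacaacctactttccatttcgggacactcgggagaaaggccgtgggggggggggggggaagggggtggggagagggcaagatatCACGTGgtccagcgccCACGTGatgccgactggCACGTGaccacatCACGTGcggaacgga
Ctsd, chr7:142387828-142388077, minus strand: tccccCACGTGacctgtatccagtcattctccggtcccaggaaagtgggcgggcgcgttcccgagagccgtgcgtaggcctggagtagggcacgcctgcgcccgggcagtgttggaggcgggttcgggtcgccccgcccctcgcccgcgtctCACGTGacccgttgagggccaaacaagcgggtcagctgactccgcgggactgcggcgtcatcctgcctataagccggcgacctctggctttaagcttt
Gaa, chr11:119267713-119267962, plus strand: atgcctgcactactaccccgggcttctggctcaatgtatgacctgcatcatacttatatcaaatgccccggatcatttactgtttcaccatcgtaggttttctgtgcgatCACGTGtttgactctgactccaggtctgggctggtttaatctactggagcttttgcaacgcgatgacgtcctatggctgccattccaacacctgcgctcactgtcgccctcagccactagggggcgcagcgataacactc
Atg3, chr16:45158579-45158828, plus strand: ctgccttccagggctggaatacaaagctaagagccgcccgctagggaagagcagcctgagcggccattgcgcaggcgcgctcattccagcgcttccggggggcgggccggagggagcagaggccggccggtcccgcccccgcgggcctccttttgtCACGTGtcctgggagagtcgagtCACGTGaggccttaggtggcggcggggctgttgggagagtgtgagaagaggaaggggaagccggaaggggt

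Of the 6 cathepsin genes, which encode lysosomal proteases, 3 rose before induction, 3 fell and 1 rose at 48 h, and 1 rose at 144 h. Ctsd, the aspartic protease cathepsin D, lay at 9.19, 9.45 and 9.19 at 24 h before induction and then 10.12, 9.95 and 9.69 at 0 h, a rise of 0.64 (SE 0.13, limma adjusted p 0.000513). It ran from 9.66 through a median of 9.97 to 10.22 over the early arrays, and reached 10.20, 10.53 and 10.20 at 24 h, then 10.30, 10.35 and 10.17 at 48 h, then 10.90, 11.00 and 10.59 at 96 h and then 10.98, 11.25 and 11.05 at 144 h. All arrays from 24 h on lay above the 3 of 0 h, and the rise at 144 h was 2.26-fold, 1.18 (SE 0.13, limma adjusted p 2.94e-09). The calls of Ctsd at 24 h (0.39) and 48 h (0.36) were lost without replicate 2 or 3 of 0 h or replicate 1 or 2 of 24 h (adjusted p 0.051 to 0.262), and without replicate 2 or 3 of 0 h or replicate 1 or 2 of 48 h (adjusted p 0.0693 to 0.27). Ctsb, the cysteine protease cathepsin B, was at 10.33, 10.36 and 10.13 at 24 h before induction and then 10.95, 10.78 and 10.69 at 0 h. Its 24 early arrays ran from 10.68 through a median of 10.85 to 11.08. It was at 10.98, 10.89 and 10.75 at 24 h, then 10.22, 10.34 and 10.17 at 48 h, then 10.69, 10.51 and 10.41 at 96 h and then 10.76, 10.82 and 10.69 at 144 h, lowest at 48 h. Ctsb rose by 0.53 (SE 0.11, limma adjusted p 0.00049) before induction, fell by 0.56 (adjusted p 0.000121) at 48 h and rose by 0.51 (SE 0.11, limma adjusted p 0.000903) from 48 h to 144 h, and its 144 h arrays overlapped those of 0 h.

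Ctsa, which encodes protective protein, the carboxypeptidase that stabilises neuraminidase, was at 8.19, 8.42 and 8.08 at 24 h before induction and then 9.40, 9.15 and 8.85 at 0 h. This was the largest rise of the cathepsins there, 1.87-fold or 0.91 (SE 0.14, limma adjusted p 8.44e-06). Across the early arrays it ran from 8.88 through a median of 9.22 to 9.52. It was at 9.10, 9.29 and 9.05 at 24 h, then 8.75, 8.91 and 8.49 at 48 h, then 9.41, 9.28 and 9.11 at 96 h and then 9.35, 9.61 and 9.33 at 144 h. Ctsa fell by 0.42 (adjusted p 0.021) at 48 h with overlapping arrays, and that call was lost without replicate 1 or 2 of 0 h or replicate 3 of 48 h (adjusted p 0.0546 to 0.176). Ctsh, an aminopeptidase of the family, was the cathepsin called before 24 h. It lay at 6.28, 6.35 and 6.20 at 24 h before induction, then 6.58, 6.67 and 6.49 at 0 h and then 5.90, 5.86 and 5.63 at 12 h, and its early arrays, those of 12 h included, ran from 5.63 through a median of 6.46 to 7.14. It was at 5.73, 6.21 and 5.92 at 24 h, then 5.71, 5.96 and 5.74 at 48 h, then 6.33, 6.20 and 6.29 at 96 h and then 5.52, 6.49 and 6.44 at 144 h, and the 12 arrays at 12 h, 24 h, 48 h and 96 h were below the 3 at 0 h. Ctsh fell by 0.78 (SE 0.20, limma adjusted p 0.0212) at 12 h, by 0.63 (adjusted p 0.0296) at 24 h and by 0.78 (adjusted p 0.00308) at 48 h, and the call at 24 h was lost without replicate 1, 2 or 3 of 0 h or replicate 1 or 3 of 24 h (adjusted p 0.0559 to 0.149). The call at 12 h was lost after quantile normalization (-0.71, limma adjusted p 0.0593) and without replicate 1, 2 or 3 of 0 h or replicate 2 or 3 of 12 h (adjusted p 0.0506 to 0.141). Replicate 1 was low at 144 h, where its difference was -0.43 (SE 0.20, limma adjusted p 0.111).

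Ctsl, cathepsin L, and Ctsz, a carboxypeptidase, were called in none of the 18 comparisons. Ctsl was at 11.81, 11.76 and 11.84 at 24 h before induction and then 12.15, 11.99 and 12.33 at 0 h. Its early arrays ran from 11.87 through a median of 12.13 to 12.41. It was at 12.19, 12.27 and 12.46 at 24 h, then 11.92, 11.88 and 12.10 at 48 h, then 12.29, 12.01 and 12.21 at 96 h and then 12.21, 12.21 and 12.31 at 144 h, each group overlapping 0 h. The 3 arrays of Ctsl at 0 h all lay above the earlier 3, with a difference of 0.35 (SE 0.12, limma adjusted p 0.0524). Ctsz was at 10.30, 10.35 and 9.94 at 24 h before induction and then 10.82, 10.69 and 10.38 at 0 h. Over the early arrays it ran from 10.09 through a median of 10.58 to 10.88. It was at 10.42, 10.61 and 10.33 at 24 h, then 10.39, 10.56 and 10.12 at 48 h, then 10.72, 10.55 and 10.39 at 96 h and then 10.26, 10.69 and 10.52 at 144 h, each group again overlapping 0 h. Its difference before induction was 0.43 (SE 0.16, limma adjusted p 0.0646).

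**Figure D2:**
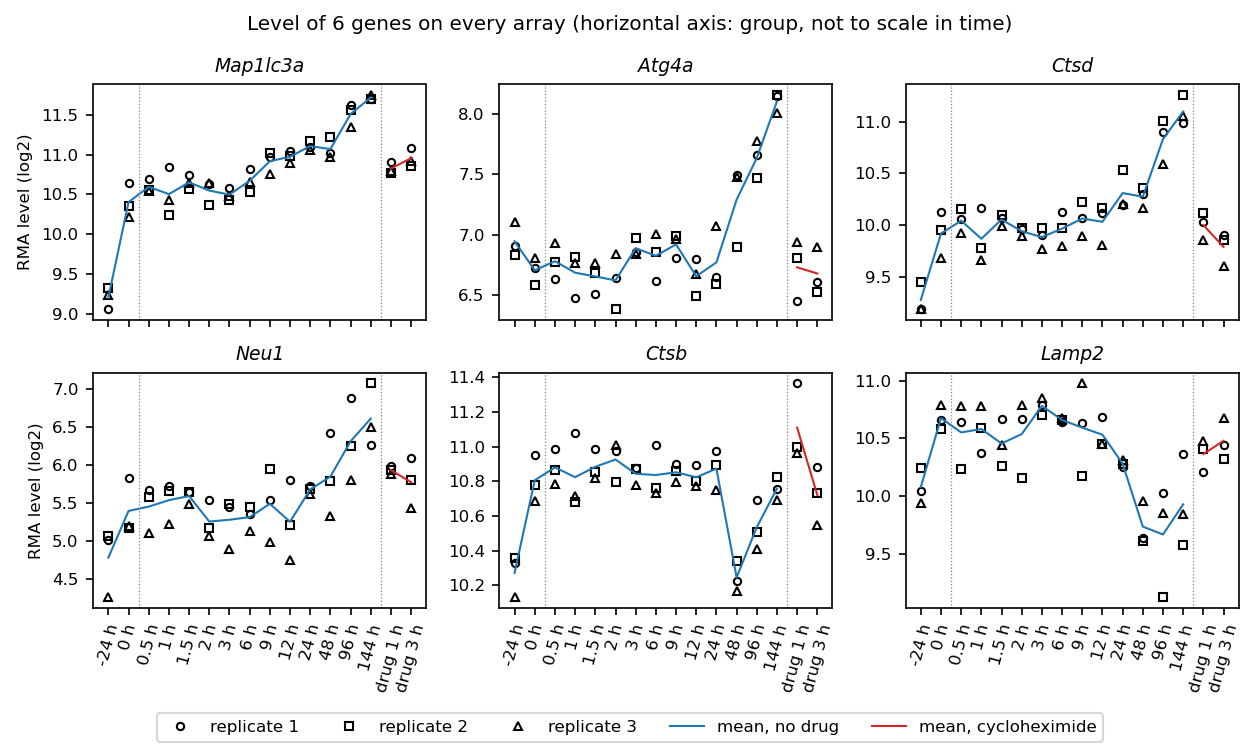
Points give the log2 level on each of the 48 arrays for 6 genes, with a marker per replicate, a blue line through the means of the 14 groups without drug and a red line for cycloheximide. Map1lc3a and Ctsd lie higher at 0 h than 24 h before, above 0 h at 24 h and 48 h, and higher again at 96 h and 144 h, Atg4a and Neu1 have their highest means at 96 h and 144 h, Ctsb dips at 48 h, and Lamp2 stays below its 0 h arrays from 24 h on.

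Of the 5 other lysosomal genes, 4 rose before induction, and 3 rose and 1 fell at 144 h. Lamp1, an abundant glycoprotein of the lysosomal membrane, was at 11.17, 11.26 and 11.19 at 24 h before induction and then 11.52, 11.43 and 11.47 at 0 h. From 0.5 h to 12 h it ran from 11.36 through a median of 11.50 to 11.62. It was at 11.55, 11.61 and 11.62 at 24 h, then 11.33, 11.47 and 11.50 at 48 h, then 11.63, 11.53 and 11.58 at 96 h and then 11.78, 11.61 and 11.60 at 144 h, with rises of 0.26 (SE 0.07, limma adjusted p 0.0085) before induction and 0.19 (SE 0.07, limma adjusted p 0.0413) at 144 h. The call before induction was lost without replicate 1 of the group 24 h before or replicate 1 of 0 h (adjusted p 0.0532 to 0.0538), and the call at 144 h without replicate 2 or 3 of 0 h or replicate 1 of 144 h (adjusted p 0.0929 to 0.217). Lamp2, its relative in the same membrane, was at 10.05, 10.25 and 9.95 at 24 h before induction and then 10.66, 10.58 and 10.79 at 0 h. Its 24 early arrays ran from 10.16 through a median of 10.65 to 10.98. It then stood at 10.26, 10.28 and 10.31 at 24 h, then 9.64, 9.62 and 9.96 at 48 h, then 10.03, 9.13 and 9.85 at 96 h and then 10.37, 9.58 and 9.85 at 144 h, each group wholly below 0 h, and replicate 2 at 96 h was the lowest of the series for this gene. Lamp2 fell 1.91-fold at 48 h (-0.94 on the log2 scale, SE 0.19, limma adjusted p 0.000277), 2.01-fold at 96 h (-1.01, adjusted p 8.11e-05) and 1.68-fold at 144 h (-0.74, adjusted p 0.00274). All 4 probe sets of Lamp2 gave a negative difference at 144 h, from -0.30 to -0.90, and a positive one before induction, from 0.60 to 1.15, where the call on the one used was lost without replicate 1 or 3 of the group 24 h before or replicate 1, 2 or 3 of 0 h (adjusted p 0.0555 to 0.127).

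Hexa, the alpha subunit of beta-hexosaminidase, lay at 9.51, 9.63 and 9.51 at 24 h before induction and then 10.50, 10.41 and 10.28 at 0 h. Across the early arrays it ran from 10.04 through a median of 10.34 to 10.61. It was at 10.39, 10.60 and 10.21 at 24 h, then 10.47, 10.59 and 10.36 at 48 h, then 10.98, 10.93 and 10.76 at 96 h and then 11.00, 11.23 and 11.07 at 144 h. Hexa rose by 0.85 (SE 0.11, limma adjusted p 3.17e-07) before induction and by 0.70 (SE 0.11, limma adjusted p 1.58e-06) at 144 h, with no overlap in either comparison. Neu1, the sialidase that Ctsa stabilises, was at 5.01, 5.07 and 4.26 at 24 h before induction and then 5.82, 5.17 and 5.20 at 0 h. Its early arrays ran from 4.75 through a median of 5.47 to 5.95. It was at 5.73, 5.69 and 5.63 at 24 h, then 6.42, 5.79 and 5.33 at 48 h, then 6.88, 6.25 and 5.81 at 96 h and then 6.26, 7.08 and 6.50 at 144 h, with a wide spread. The difference of Neu1 before induction did not pass the test (0.61, SE 0.28, limma adjusted p 0.173), and its rise at 144 h was 2.32-fold, 1.22 (SE 0.28, limma adjusted p 0.000777). Weaker probe sets of Neu1 gave 0.37 and 0.27 at 144 h, and its call at 96 h (0.92) was lost without replicate 2 or 3 of 0 h or replicate 1 of 96 h (adjusted p 0.0521 to 0.104). Gaa, acid alpha-glucosidase, which breaks down lysosomal glycogen, rose by 0.74 (SE 0.12, limma adjusted p 2.09e-05) before induction and by 0.37 (SE 0.12, limma adjusted p 0.0415) from 48 h to 144 h, with 0.22 (SE 0.12, limma adjusted p 0.197) for 144 h against 0 h. The call of Gaa from 48 h to 144 h was lost without replicate 1 or 3 of 48 h or replicate 1, 2 or 3 of 144 h (adjusted p 0.081 to 0.175).

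**Figure D3:**
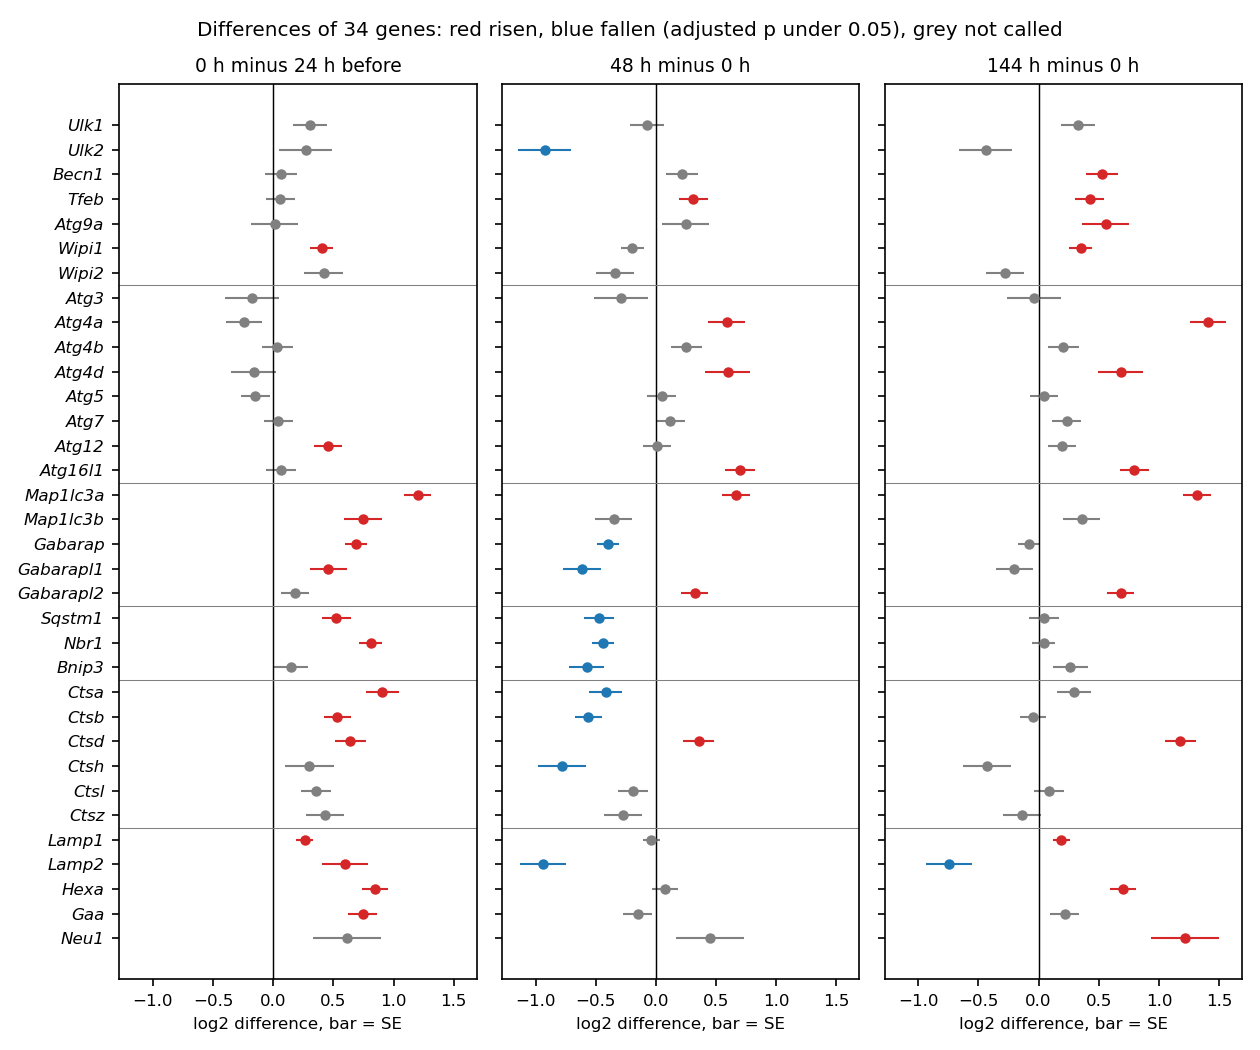
Points give the log2 difference of each of the 34 genes, with bars of 1 SE from limma, for 0 h against 24 h before, 48 h against 0 h and 144 h against 0 h, and red and blue mark genes that rose or fell. Most red points of the left panel lie in the Atg8, receptor, cathepsin and lysosome blocks, 10 blue points appear in the middle panel, and Lamp2 is the 1 blue point in the right panel.

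From 24 h to 144 h the 12 genes that rose were Wipi1, Becn1, Atg9a, Atg16l1, Atg4a, Map1lc3a, Map1lc3b, Gabarapl2, Bnip3, Ctsd, Hexa and Neu1, with Atg4a the largest at 1.34 (SE 0.15, limma adjusted p 1.35e-08). Bnip3 rose by 0.60 and Map1lc3b by 0.61 there. From 48 h to 144 h the 15 that rose were Wipi1, Atg4a, Map1lc3a, Map1lc3b, Gabarap, Gabarapl2, Sqstm1, Nbr1, Bnip3, Ctsa, Ctsb, Ctsd, Lamp1, Hexa and Gaa, with differences from 0.23 for Lamp1 to 0.84 for Bnip3. In the comparison with 24 h, 5 calls were lost without some single array, those of Atg16l1 without replicate 1 or 2 of 24 h or replicate 2 of 144 h (adjusted p 0.0609 to 0.154), Atg9a without replicate 3 of 24 h or replicate 2 of 144 h (adjusted p 0.13 to 0.137), Becn1 without replicate 1 of 24 h (adjusted p 0.0503), Bnip3 without replicate 3 of 144 h (adjusted p 0.0668) and Neu1 without replicate 3 of 24 h or replicate 2 of 144 h (adjusted p 0.0582 to 0.165). In the comparison with 48 h these were, besides Gaa, Gabarap without replicate 1 or 3 of 48 h or replicate 2 or 3 of 144 h (adjusted p 0.0611 to 0.108), Gabarapl2 without replicate 1 or 3 of 48 h or replicate 2 or 3 of 144 h (adjusted p 0.116 to 0.167) and Lamp1 without replicate 1 of 48 h or replicate 1 of 144 h (adjusted p 0.196 to 0.207).

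Some calls depended on how the arrays were scaled or the probe sets summarised. Scaling to housekeeping genes ended the calls of Tfeb, Atg9a, Wipi1 and Lamp1 at 144 h, of Becn1, Atg4b and Atg4d at 96 h, of Tfeb, Atg4a, Atg4d, Gabarapl2 and Ctsd at 48 h, and of Ctsd at 24 h. It also ended that of Atg16l1 from 24 h to 144 h. Quantile normalization ended those of Lamp1 at 144 h, Nbr1 at 96 h, Gabarapl2 at 48 h and Ctsh at 24 h, and those of Lamp1 and Gaa from 48 h to 144 h. Averaging the probe sets of a gene ended the calls of Wipi1 before induction and at 144 h, of Gabarapl2, Sqstm1 and Ctsa at 48 h, of Nbr1 at 96 h, and of Sqstm1 from 48 h to 144 h. From 24 h to 144 h averaging ended those of Becn1, Wipi1, Atg16l1, Map1lc3b and Neu1.

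Cycloheximide was compared with untreated cells of the same time, 1 h and 3 h after induction, which is 2 h and 4 h after the drug was added. The drug-treated arrays did not share the distribution of the others. The median of all genes lay 0.20 higher at 1 h and 0.19 higher at 3 h as deposited, and at -0.01 and -0.01 once the 48 arrays were quantile normalized again. As deposited, 7 of the 34 genes rose and 0 fell at 1 h (limma), where 24.6% of all genes were called, 24.2% upward and 0.418% downward. At 3 h 5 rose and 3 fell, where 34.4% of all genes were called, 30.9% upward and 3.42% downward. After quantile normalization 2 rose and 0 fell at 1 h, where 6.78% of all genes were called, and 4 rose and 6 fell at 3 h, where 24.1% were. Centring on housekeeping genes moved the median of all genes by -0.30 at 1 h. With it 1 gene of the set rose at 1 h, where 8.13% of all genes were called. At 3 h 4 rose and 4 fell, where 25% of all genes were called, 21.3% upward and 3.74% downward. The 1 h calls that this centring ended were those of Ulk1, Tfeb, Atg4b, Atg12, Map1lc3a and Gabarapl2, and at 3 h that of Atg3. Averaging the probe sets ended those of Ulk1, Map1lc3a and Gabarapl2 at 1 h. Without replicate 2 of the untreated 1 h group, 4 genes were called at 1 h as deposited.

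Of the 8 conjugation genes, 3 rose at 1 h and 4 at 3 h as deposited, where 24.2% and 30.9% of all genes rose. After quantile normalization 2 rose at 1 h (6.78% of all genes called), and 3 rose and 1 fell at 3 h (24.1%). Atg16l1 rose most at 1 h, from 6.98, 7.06 and 6.75 in untreated to 8.22, 8.03 and 7.95 in drug-treated cells, and again at 3 h, from 7.40, 7.45 and 7.20 to 8.39, 8.61 and 8.33. The groups did not overlap at either time. Over the set 12 of 34 genes had no overlap at 1 h, against 38.9% of all genes, and 13 at 3 h, against 49.4%. The differences were 1.13 (SE 0.12, limma adjusted p 7.19e-09) at 1 h and 1.09 (SE 0.12, limma adjusted p 2.92e-09) at 3 h, or 0.82 and 0.81 after quantile normalization (adjusted p 2.47e-06 and 4.11e-07). Atg12, its partner in the conjugate, went from 7.56, 7.84 and 7.68 to 8.47, 8.25 and 8.25 at 1 h and from 7.89, 7.89 and 7.79 to 8.83, 9.12 and 9.07 at 3 h. Atg12 rose by 0.63 (SE 0.12, limma adjusted p 0.000129) and 1.15 (SE 0.12, limma adjusted p 4.37e-10), and by 0.33 and 0.90 after quantile normalization (adjusted p 0.0344 and 3.17e-09). With housekeeping centring Atg12 had 0.33 at 1 h (limma adjusted p 0.135). Atg4b stood at 8.41, 8.57 and 8.20 untreated and 8.85, 9.03 and 8.85 treated at 1 h, and at 8.10, 8.56 and 8.16 untreated and 8.93, 9.14 and 8.89 treated at 3 h. It rose by 0.51 and 0.71 (SE 0.13, limma adjusted p 3.84e-05), and after quantile normalization its values were 0.25 at 1 h (adjusted p 0.287) and 0.46 at 3 h (adjusted p 0.00688).

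Atg3 was at 8.73, 8.83 and 8.90 untreated and 9.54, 8.96 and 8.90 treated at 1 h, and at 9.11, 8.96 and 9.10 untreated and 9.68, 9.73 and 9.72 treated at 3 h, without overlap at either time. Its difference was 0.31 (SE 0.23, limma adjusted p 0.321) at 1 h and 0.65 (SE 0.23, limma adjusted p 0.022) at 3 h. The 3 h call was lost after quantile normalization (0.46, adjusted p 0.112) and without replicate 2 of untreated 3 h or replicate 2 or 3 of drug-treated 3 h (adjusted p 0.0501 to 0.0705). Atg4a was not called as deposited, with treated arrays of 6.44, 6.80 and 6.93 at 1 h and 6.61, 6.52 and 6.90 at 3 h that overlapped the untreated ones, and had -0.21 at 3 h. Atg5, Atg7 and Atg4d had 0.21, 0.09 and 0.43 at 3 h and were not called.

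Among the 7 initiation genes, 2 were called upward at 1 h as deposited, where 24.2% of all genes were. At 3 h 2 were called downward, where 3.42% of all genes were. After quantile normalization 0 were called at 1 h (6.78% of all genes called), and 3 fell at 3 h (24.1%). Ulk1 went from 7.65, 7.54 and 7.51 untreated to 8.28, 7.90 and 7.87 treated at 1 h, all 3 higher, and from 7.96, 7.61 and 7.52 to 7.66, 7.42 and 7.06 at 3 h, with overlap. Its differences were 0.45 (SE 0.14, limma adjusted p 0.016) at 1 h and -0.32 (SE 0.14, limma adjusted p 0.0738) at 3 h, or 0.14 (adjusted p 0.575) and -0.66 (adjusted p 5.03e-05) after quantile normalization. The 1 h call of Ulk1 was lost without replicate 3 of untreated 1 h or replicate 1 of drug-treated 1 h (adjusted p 0.0573 to 0.129). Ulk2 was at 8.53, 8.27 and 8.27 treated at 1 h, overlapping the untreated arrays, and went from 8.33, 8.38 and 8.48 to 7.66, 7.54 and 7.93 at 3 h without overlap. The 3 h difference of Ulk2 was -0.69 (SE 0.22, limma adjusted p 0.0138) as deposited and -1.04 after quantile normalization, and the call was lost without replicate 2 of drug-treated 3 h (adjusted p 0.0656). Tfeb went from 5.99, 5.85 and 6.10 to 6.38, 6.35 and 6.39 at 1 h, all 3 higher, and had treated arrays of 6.10, 6.32 and 6.32 at 3 h. Tfeb was called at 1 h as deposited, with 0.39 (SE 0.12, limma adjusted p 0.0144), and had 0.01 after quantile normalization (adjusted p 0.992). Becn1 was not called, with treated arrays of 8.74, 8.72 and 9.06 at 1 h and 8.84, 8.61 and 9.03 at 3 h among the untreated values.

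Wipi1 fell at 3 h from 8.31, 8.25 and 8.22 to 7.76, 7.84 and 8.0, -0.39 (SE 0.10, limma adjusted p 0.00161). Lamp1 was at 11.57, 11.34 and 11.37 treated at 1 h, overlapping the untreated arrays, and fell at 3 h from 11.55, 11.52 and 11.55 to 11.28, 11.30 and 11.07, -0.32 (SE 0.07, limma adjusted p 0.000441). Neither gene had overlapping groups at 3 h. The call of Wipi1 was lost with averaged probe sets (-0.24, limma adjusted p 0.159) and without probe sets ending in _s_at or _x_at (-0.32, adjusted p 0.27). After quantile normalization the 3 h differences were -0.73 for Wipi1 and -0.38 for Lamp1, still called, and Atg4a (-0.57) and Ctsa (-0.56) were called downward as well. Gabarapl2 rose by 0.47 (SE 0.11, limma adjusted p 0.00211) at 1 h and had 0.27 after quantile normalization (adjusted p 0.19). The calls of Tfeb and Gabarapl2 at 1 h were lost without replicate 2 of the untreated group (adjusted p 0.0829 and 0.0593).

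Map1lc3a was at 10.84, 10.24 and 10.43 untreated and 10.91, 10.77 and 10.80 treated at 1 h, with overlap, and at 10.58, 10.43 and 10.48 untreated and 11.09, 10.86 and 10.92 treated at 3 h, without. The differences were 0.32 (SE 0.12, limma adjusted p 0.0388) and 0.46 (SE 0.12, limma adjusted p 0.00205), but its other probe set gave 0.16 at 3 h. With probe sets whose names mark possible cross-hybridisation left out, or with averaged probe sets, neither call held. The 1 h call was lost without replicate 2 or 3 of untreated 1 h or replicate 1, 2 or 3 of drug-treated 1 h (adjusted p 0.0599 to 0.285). Map1lc3b, Gabarap and Gabarapl1 had -0.22, -0.06 and 0.03 at 3 h and were called at neither time. Treated arrays of Map1lc3b were 10.79, 11.30 and 11.64 at 1 h and 10.78, 10.94 and 11.25 at 3 h, and those of Gabarapl1 10.48, 10.95 and 10.66 at 1 h and 9.88, 10.55 and 10.21 at 3 h. Both genes overlapped the untreated arrays at both times.

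Of the 3 receptors, 0 were called as deposited at either time, and 0 had an unadjusted p under 0.05 (limma). For this count and that of the cathepsins below, the shares of all genes called were 24.6% at 1 h and 34.4% at 3 h. The 3 h differences were 0.19 for Sqstm1, 0.08 for Nbr1 and 0.13 for Bnip3. Sqstm1 arrays were 11.64, 11.54 and 11.47 untreated and 11.65, 11.86 and 11.65 treated at 1 h, and 11.13, 11.42 and 11.15 untreated and 11.33, 11.56 and 11.41 treated at 3 h. Bnip3 arrays at 3 h were 9.02, 9.36 and 9.25 untreated and 9.20, 9.49 and 9.33 treated, after 9.32, 9.81 and 9.75 treated at 1 h. Nbr1 had treated arrays of 9.97, 9.92 and 10.03 at 1 h and 9.66, 9.67 and 9.84 at 3 h. The 3 treated arrays of Sqstm1 lay above the untreated ones at 1 h, and the groups overlapped at 3 h and for the other two receptors.

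Of the 6 cathepsins, 0 were called as deposited at either time (limma), with 2 at an unadjusted p under 0.05 at 1 h and 1 at 3 h. Ctsb had 0.29 at 1 h (limma adjusted p 0.0505), with treated arrays of 11.36, 11.00 and 10.96, and at 3 h its arrays were 10.88, 10.87 and 10.78 untreated and 10.88, 10.73 and 10.55 treated. Ctsd was at 10.03, 10.11 and 9.86 treated at 1 h, and at 9.91, 9.98 and 9.77 untreated and 9.90, 9.86 and 9.61 treated at 3 h. Ctsl was at 12.17, 11.98 and 12.28 treated at 1 h, and at 12.12, 12.00 and 12.29 untreated and 12.17, 12.01 and 12.34 treated at 3 h, a difference of 0.03. These 3 genes overlapped the untreated arrays at both times. Ctsa had treated arrays of 9.44, 9.43 and 9.35 at 1 h, all above the untreated ones, and of 8.92, 9.01 and 8.77 at 3 h, all below. Ctsh was at 6.89, 7.25 and 7.20 with the drug at 1 h and 6.24, 6.73 and 6.67 at 3 h, and Ctsz at 10.78, 10.84 and 10.51 and then 10.43, 10.38 and 10.22, all with overlap.

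Lamp2, Hexa, Gaa and Neu1 had -0.30, 0.09, 0.17 and 0.49 at 3 h and were not called. Lamp2 was at 10.21, 10.41 and 10.47 with the drug at 1 h and 10.44, 10.32 and 10.67 at 3 h, the latter all below the untreated arrays. Hexa was at 10.40, 10.50 and 10.53 at 1 h and 10.50, 10.43 and 10.29 at 3 h, with overlap at both times. Neu1 was at 5.99, 5.93 and 5.88 at 1 h and 6.09, 5.80 and 5.44 at 3 h, all above the untreated arrays at 1 h and with overlap at 3 h.

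An interaction term compared the drug's effect at 3 h with that at 1 h and called 3 of the 34 genes downward and 0 upward (limma), against 4.29% of all genes, 2.65% upward and 1.64% downward. Ulk1 had -0.77 (SE 0.20, limma adjusted p 0.0143), Wipi1 -0.46 (SE 0.14, limma adjusted p 0.0451) and Lamp1 -0.33 (SE 0.10, limma adjusted p 0.05), the last just inside the threshold. After quantile normalization, where 4.88% of all genes were called, Ulk1 had -0.80, Wipi1 -0.50 and Ctsa -0.67, Atg12 was called upward at 0.57, and Lamp1 was at -0.27 (adjusted p 0.187). The call of Ulk1 was lost without replicate 1 of untreated 3 h or replicate 1 of drug-treated 1 h or replicate 3 of drug-treated 3 h (adjusted p 0.064 to 0.0784). Leaving out single arrays of the 12 also ended the calls of Wipi1 (adjusted p up to 0.144) and of Lamp1 (up to 0.2). Without replicate 1 of the untreated 3 h group 0 genes were called, with 8 at an unadjusted p under 0.05, and a fit to the 12 arrays alone also called 0, with 6 at that p. Scaling to housekeeping genes left Ulk1 at -0.53 (limma adjusted p 0.11), Wipi1 at -0.22 (0.41) and Lamp1 at -0.09 (0.688).

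**Figure D4:**
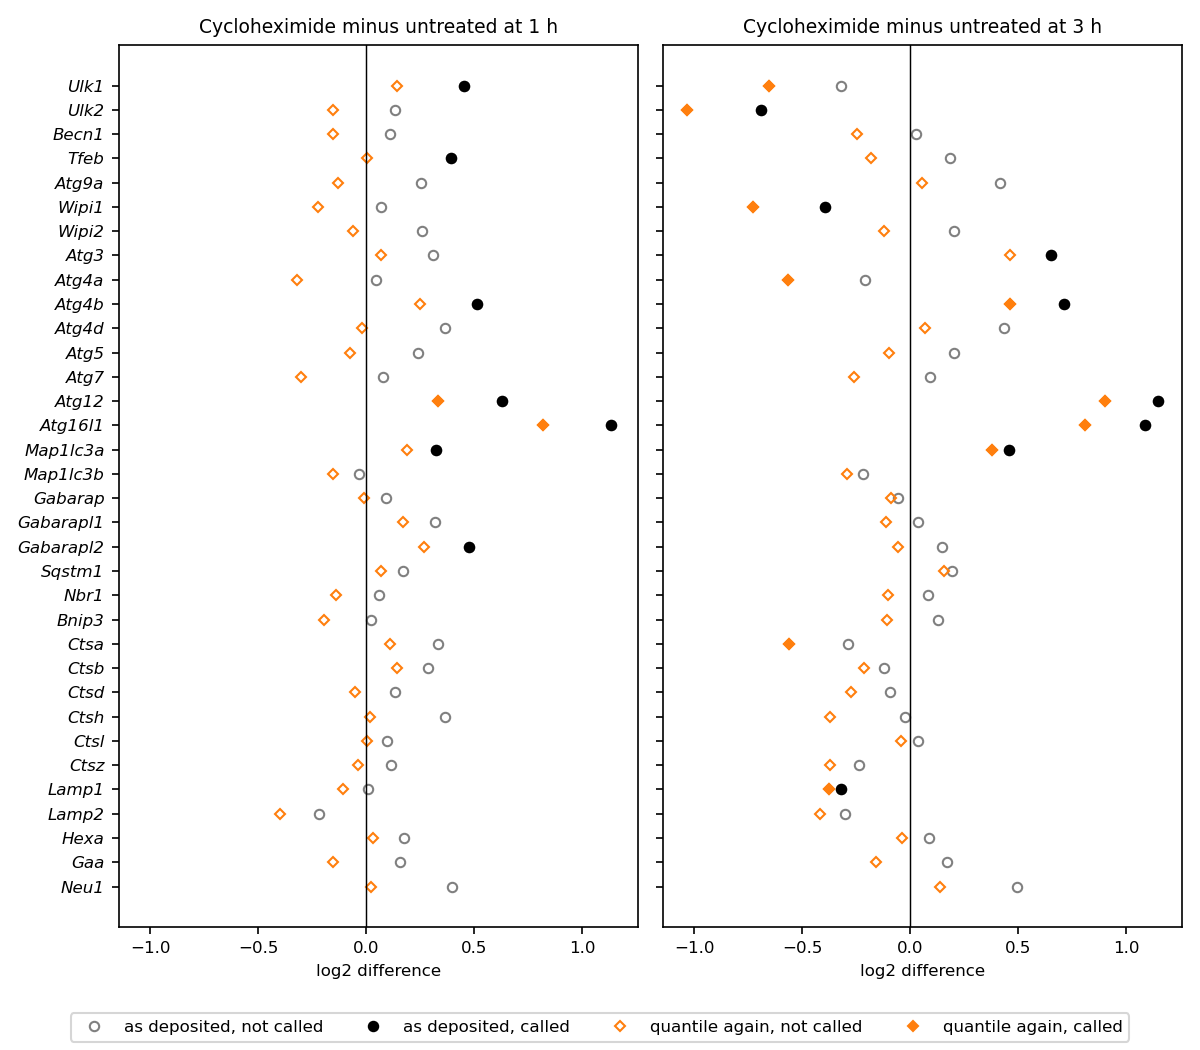
Points give the log2 difference between cycloheximide-treated and untreated cells for each of the 34 genes at 1 h and 3 h, as black or grey circles for the deposited values and orange diamonds after quantile normalization of the 48 arrays again, filled where called. The diamonds lie to the left of most circles, while Atg12 and Atg16l1 are filled on both scales at both times.

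The rest of the pathway was read from lists of genes outside the set, whose differences are on the log2 scale. Of 36 other autophagy genes, 9 rose and 1 fell before induction, 4 rose and 14 fell at 48 h, and 5 rose and 4 fell at 144 h (limma). Of all genes, 13.1% were called before induction (7.26% upward), 26.7% at 48 h (12.4% upward) and 28.4% at 144 h (13.5% upward). Trp53inp2, the LC3-binding protein DOR, rose by 1.69 at 144 h, the mitophagy kinase Pink1 by 1.07 and the mitophagy receptor Bcl2l13 by 0.79. Wdfy3, Fundc1 and Atg4c fell by 0.59, 0.53 and 0.52. Before induction the largest change was in Calcoco1, a receptor for the endoplasmic reticulum, which rose by 1.80, and Tmem41b, a lipid scramblase, fell by 0.33. Of 28 signalling genes upstream of autophagy, 6 rose and 0 fell before induction, 3 rose and 7 fell at 48 h, and 4 rose and 2 fell at 144 h. Flcn, a regulator of TFEB, rose by 1.11 at 144 h, Prkaa2 by 0.87 and Mtor by 0.66, while Rictor fell by 1.08 and Prkaa1 by 1.04. Prkaa2 and Prkaa1 encode the alternative catalytic subunits of AMPK. Deptor, an inhibitor of mTOR, rose by 1.01 before induction.

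Of 32 other lysosomal hydrolases, 14 rose and 0 fell before induction, 0 rose and 16 fell at 48 h, and 2 rose and 9 fell at 144 h, with medians of 0.30, -0.43 and -0.11. Ctso, another cathepsin, rose by 1.51 before induction and fell by 1.10 at 144 h. Ctsc, the peptidase that activates granule proteases, rose by 3.71 at 144 h, from 3.11 ± 0.08 (SD, n = 3) to 6.82 ± 0.63, and Hyal2 by 0.52. Ids and Arsb, both sulfatases of glycosaminoglycan breakdown, fell by 1.36 and 1.11. Of 22 other lysosomal membrane and accessory proteins, 7 rose and 0 fell before induction, 2 rose and 6 fell at 48 h, and 7 rose and 4 fell at 144 h. Gm2a, the activator of GM2 ganglioside breakdown, rose by 1.48 before induction. At 144 h the sorting receptor Sort1 rose by 1.03, Ostm1 by 0.62 and Gnptg by 0.58, while Gnptab, the other subunit gene of the enzyme that marks hydrolases with mannose 6-phosphate, fell by 1.22, Psap by 0.53 and Npc2 by 0.49. The 20 V-ATPase subunit genes gave 5 rises and 0 falls before induction, 9 rises and 1 fall at 48 h, and 11 rises and 0 falls at 144 h. Atp6v0e2, Atp6v1e1 and Atp6v0b rose by 2.31, 1.27 and 1.13 at 144 h, and Atp6v1f by 0.84 before induction. The counts of these lists stand beside the same shares of all genes, 13.1% before induction, 26.7% at 48 h and 28.4% at 144 h. No test between the lists was made.

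With cycloheximide at 3 h, 13 of the 36 other autophagy genes rose and 0 fell as deposited, with the largest rise in Atg16l2, a paralog of Atg16l1, by 1.84. Of the upstream genes 12 rose and 1 fell, with Ddit4, the stress-induced mTOR inhibitor REDD1, at 2.86 and Sesn3 at -0.91. Of the hydrolases 6 rose and 4 fell, with Idua at 0.66 and Hyal2 at -0.51. Of the membrane and accessory proteins 3 rose and 4 fell, with Cln3 at 0.59 and M6pr, a mannose 6-phosphate receptor, at -0.70. Of the V-ATPase genes 5 rose and 1 fell, with Atp6v0a1 at 0.71 and Atp6v0a2 at -0.56. These counts stand beside the 34.4% of all genes called at 3 h as deposited, 30.9% upward and 3.42% downward. After quantile normalization 24.1% of all genes were called at 3 h. Of the other autophagy genes 7 then rose and 4 fell, and of the upstream genes 10 and 3. Of the hydrolases 0 rose and 10 fell, and of the membrane and accessory proteins 1 and 7. Of the V-ATPase genes 1 rose and 2 fell. Idua (0.29, limma adjusted p 0.155) and Atp6v0a1 (0.32, adjusted p 0.255) were then not called. With the drug the summed intensity of the 10 macrophage and leukocyte genes ran from 245 to 324 at 1 h, against 246 to 261 untreated, and from 226 to 258 at 3 h, against 209 to 230. That of the 3 adipocyte genes ran from 77.3 to 94.6 at 1 h, against 53.1 to 58.9 untreated, and from 88.8 to 101 at 3 h, against 51.2 to 70.7. The part of such markers in these differences was not tested.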

How the data were processed

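RNA of 48 C2C12 cultures, 3 in each of 16 groups named by the labels, was read on 1-colour Affymetrix arrays. The deposited values are log2 signals per probe set, which the authors made with RMA, per the submitters' processing notes. RMA as commonly run corrects background, equalises the distributions of the arrays and summarises the probes of a set. Its version and which arrays were run together are not given in the sources used here. Of 45101 probe sets, 34945 carried 1 gene symbol in the platform annotation, 932 several and 9160 none, and 64 controls were left out. Each of 18193 genes took the values of 1 probe set, the brightest on average of those with its symbol alone. Tests used limma 3.58.1 under R 4.3.3 (lmFit and eBayes, 1 coefficient per group, 32 residual degrees of freedom, two-sided), with Benjamini-Hochberg adjustment over all genes within each comparison and a threshold of 0.05. The model was tested on simulated data. The alternatives were trend and robust moderation, the replicate number as a block, another normalization, housekeeping centring, other probe set choices, a filter on dim genes, a fit to the arrays compared alone, and single arrays left out.

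The 35 members and the lists of other autophagy, upstream, hydrolase, membrane and V-ATPase genes and of cell type markers were chosen with earlier results of these data known. Values of every array, or the lowest, median and highest early array, are given for 16 genes chosen by name and for the 5 called genes of largest change in each of 0 h against 24 h before, 144 h against 0 h and cycloheximide at 3 h. Of the other lists, the genes named are the up to 3 risen and 3 fallen of largest change at 144 h, and the 1 risen and 1 fallen of largest change before induction and for cycloheximide at 3 h. Promoter windows came from RefSeq's GRCm38.p6 starts, matched by gene symbol.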

Additional observations from a re-analysis of the deposited data

Results flagged for a closer look

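For 3 genes of the set the effect of cycloheximide differed between 3 h and 1 h of differentiation by limma's test of the difference itself. The effect at 3 h minus the effect at 1 h was -0.77 for Ulk1, -0.46 for Wipi1 and -0.33 for Lamp1, on the log2 scale. These calls did not hold throughout: with housekeeping centring the differences were -0.53 for Ulk1, -0.22 for Wipi1 and -0.09 for Lamp1 (limma adjusted p 0.11, 0.41 and 0.688), and a fit to the 12 arrays alone called 0 genes, with 6 at an unadjusted p under 0.05. Leaving out any 1 of 10 of the 12 arrays ended the call of Wipi1, and likewise for Lamp1. For Ulk1 the treated arrays were all higher than the untreated ones at 1 h and overlapped them at 3 h, and for Lamp1 they overlapped at 1 h and were all lower at 3 h. The drug-treated arrays also stood apart in their distribution, with array medians of 4.2 to 4.241 against 4.003 to 4.157, and the part of this in the 3 differences was not tested.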

How the results depend on the processing

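Directions of the 112 called gene differences between groups did not reverse under any alternative run. Without any single array 71 of them kept their call and 41 lost it with at least 1. Trend and robust moderation ended 4 calls, quantile normalization 14, housekeeping centring 24, averaging probe sets 21, leaving out probe sets ending in _s_at and _x_at 11, and a fit to the arrays compared alone 36, where fewer arrays estimate the spread. The dim filter and the replicate block ended 0.

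Among the counts of genes called, the 2 between 0.5 h and 12 h became 1 after quantile normalization, 1 with averaged probe sets and 1 without the _s_at and _x_at sets, and 0 to 2 without 1 replicate number. The 7 at 1 h of cycloheximide became 2 after quantile normalization, 1 with housekeeping centring and 4 with the arrays compared alone, and 4 to 9 without 1 array. The 3 of the drug's difference between times became 1 with housekeeping centring, 1 without the _s_at and _x_at sets and 0 with the arrays compared alone (limma, 6 genes at an unadjusted p under 0.05), and 0 to 4 without 1 array. With the arrays compared alone the 12 from 24 h to 144 h became 7 and the 15 from 48 h to 144 h became 8. Without 1 array the 4 at 24 h became 1 to 3, and without 1 replicate number the 23 of the F-test became 15 to 19, with 15 lacking replicate 2. The 24 h count was 1 without replicate 2 or 3 of 0 h, and 2 without any 1 of the 24 h arrays. For fits to the arrays compared alone, other probe set choices or arrays left out, the shares of all genes called were not taken. Whether calls fell alike over all genes cannot be told from those counts. Housekeeping centring turned 7 rises and 10 falls at 48 h into 2 and 16, and the cause was not tested.

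Same-numbered arrays deviated together with a median correlation of 0.315 over 360 pairs, of which 300 exceeded 0.1 and the lowest was -0.46, and 44 of the 48 arrays correlated best with their own number. The labels name successive passages without tying a number to one across groups. When that number entered the fit as a block, calls rose over all genes too. Before induction 20 genes of the set were called (19.2% of all genes), 6 between 0.5 h and 12 h (10.3%), and 5 (20.9%) for 24 h. The 48 h comparison gave 23 (33.4%), the 96 h one 16 (39.6%) and the 144 h one 19 (34.5%). The block gave 15 from 24 h to 144 h (20.4%), 20 from 48 h (15.9%), 29 in the F-test (48.8%), 12 for cycloheximide at 1 h (33%), 13 at 3 h (41%) and 6 for its difference between times (7.24%). Levels were not compared between genes, since probe sets differ in brightness.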
